A study of Homo sapiens with 12 samples.

Results

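The 9 genes described here, CDKN1A, GADD45A, GADD45B, MDM2, PLK2, PLK3, BTG2, SESN1 and ZMAT3, belong to the p53 and GADD45 growth arrest response and were taken by symbol from a table of 58735 genes. Messenger RNA had been measured in 12 libraries of HepaRG cells, a human hepatic cell line of wild-type genotype per its label, in a series on lipid composition in liver fibrosis. The libraries fall into 4 groups of 3. Control cells received no fatty acid and no drug, and no vehicle is named in the labels used here. The PA group had 400 µM palmitate, a saturated fatty acid labelled with deuterium, for 4 h. The PA+OA group had the same palmitate with 200 µM oleate, a monounsaturated fatty acid, for 4 h. The PA+BMS group had 400 µM palmitate for 4 h and, over 24 h, 50 µM BMS-309403, a small molecule that blocks FABP4, a carrier of fatty acids inside cells. No group had BMS-309403 or oleate without palmitate, and no group had only the longer incubation. All cells came from a single line, and nothing says that replicates are separate cultures, so p-values measure the spread between these libraries, which may be technical.

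The transcription factor p53 is held low by MDM2, the ubiquitin ligase that it also switches on, and rises when DNA or other damage blocks that ligase. Its targets stop the cell cycle (CDKN1A, BTG2), repair or protect the cell (SESN1, GADD45A) or act on RNA (ZMAT3). Several of these genes can also be raised without p53, CDKN1A and the GADD45 genes among them, by the integrated stress response and by the p38 and JNK kinases. In liver cells, saturated fatty acids are known to load the endoplasmic reticulum and to activate such stress kinases, and oleate is known for directing palmitate into neutral lipid.

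Start regions could be looked up for 8 of the 9 genes in RefSeq (GRCh38.p14), as windows from 250 bases before to 50 after a start, and GADD45A is named only. Stretches of 3 windows are printed because they show how differently starts within this one response are built. They are the GC-rich start of CDKN1A, the TATA-box start of GADD45B and a start of MDM2 that holds a match to the p53 element. By the gene coordinates given below, the CDKN1A and MDM2 starts lie inside the gene. Each stretch stops before the first annotated untranslated region in its window, and that of GADD45B also before the first base of the gene. Exons of non-coding transcripts were not looked up.
CDKN1A, chr6:36678464-36678657, plus strand, 194 bases, GGGCGG in capitals: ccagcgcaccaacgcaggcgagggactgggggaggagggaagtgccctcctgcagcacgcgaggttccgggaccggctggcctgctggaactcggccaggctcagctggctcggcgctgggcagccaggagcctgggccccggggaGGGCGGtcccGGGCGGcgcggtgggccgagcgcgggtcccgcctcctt
GADD45B, chr19:2475877-2476121, plus strand, 245 bases, TATAAA and CCAAT in capitals: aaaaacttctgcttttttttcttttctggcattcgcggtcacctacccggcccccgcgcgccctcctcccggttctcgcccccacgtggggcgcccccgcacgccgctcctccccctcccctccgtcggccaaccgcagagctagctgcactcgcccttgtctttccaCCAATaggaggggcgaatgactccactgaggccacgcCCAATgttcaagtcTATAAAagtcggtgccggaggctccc
MDM2, chr12:68808897-68809001, plus strand, 105 bases, p53 element in capitals: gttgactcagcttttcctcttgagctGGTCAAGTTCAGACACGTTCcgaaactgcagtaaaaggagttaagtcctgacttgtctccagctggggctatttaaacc
The p53 element, 2 adjacent half-sites with at most 2 mismatches in all, was found by letter match on both strands in 0.649% of 35116 RefSeq windows of 300 bases. Among the 8 genes with a window it was matched in the windows of the internal MDM2 start alone. CDKN1A has well-known p53 elements further upstream than this window reaches. Elements with more than 2 mismatches were not searched, so the capitals in the MDM2 stretch need not mark every p53 element there. TATAAA, the TATA box, was present in 11.5% of windows, the CCAAT box in 34.6% and GGGCGG, the Sp1 box, in 45.0%, each on either strand. The C/EBP-ATF element TGATGNAA, which ATF4 can bind, was present in 3.62% of windows and among the 8 genes in that of PLK3. TGACGTCA, the cyclic AMP response element, was present in 1.85% and in no window of the 8 genes. TGANTCA, the AP-1 element, was present in 7.71% and in the internal MDM2 windows. These are matches of letters in a short window and show no binding.

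The values are FPKM, read counts scaled to gene length and library size, and the whole reads behind them summed to between 16059128 and 19971190 per library. All 9 genes passed the filter of 1 FPKM in at least 3 libraries, which 11856 genes passed. SESN1 reached 1 FPKM in 5 libraries, MDM2 and ZMAT3 in 11, and the other 6 genes in 12. Reads per gene and library ran from 34 for SESN1 to 14663 for CDKN1A. PA+OA replicate 1 and PA+BMS replicate 3 lay apart from the rest of their groups, at 54.6 and -51.5 on a first principal component that held 54.4% of the variance. For the 9 genes, results that rest on them are given with and without them. Counts of the other gene lists come from all 12 libraries unless stated. None of 8 hepatocyte markers reached 1 FPKM in any library, and ALB, SERPINA1, CYP3A4 and TF stayed under 0.1, so the defining genes of mature hepatocytes were at or near 0 under this hepatic label. Of the bile duct list, KRT7 was high and carried the sum, which was 477 to 564 FPKM in control, 571 to 669 in PA, 520 to 917 in PA+OA and 140 to 185 in PA+BMS, with KRT19 and CFTR under 0.1. Fibroblast and stellate markers, of which COL1A1, PDGFRB and LUM reached 1 FPKM in any library, summed to 19.1 to 21.0 in control, 20.4 to 20.6 in PA, 15.8 to 20.4 in PA+OA and 14.7 to 15.9 in PA+BMS. Macrophage markers summed to 0.770 to 1.0002 in PA+BMS and to 1.63 to 2.50 elsewhere, with CSF1R alone reaching 1 in any library. Endothelial markers summed to 1.06 to 1.82 in control and PA and to 0.287 to 0.459 in PA+OA and PA+BMS, with CDH5 alone reaching 1 in any library. These sums, KRT7 among them, differed between groups, and their part in the results was not tested. In such bulk samples, fewer cells of a type and less RNA per cell cannot be told apart.

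With palmitate alone, 4 of the 9 genes rose (CDKN1A, GADD45A, GADD45B and PLK3) and 2 fell (PLK2 and ZMAT3), by limma on log2(FPKM + 1) with Benjamini-Hochberg adjustment at 0.05. Of all tested genes, 27.6% were called in that comparison, 12.8% as risen and 14.8% as fallen. With oleate added to palmitate, 3 rose above their PA level (GADD45A, PLK3 and BTG2) and 0 fell, where 7.91% of all genes were called, 4.01% up and 3.91% down. With BMS-309403 added to palmitate, 2 fell (CDKN1A and PLK3) and 4 rose (PLK2, MDM2, SESN1 and ZMAT3). In that comparison 54.5% of all genes were called, 25.2% up and 29.4% down, so the share of the 9 was near the background. Against control, PA+OA had 5 risen and 2 fallen, where 36.3% of all genes were called, 17.5% up and 18.8% down. PA+BMS had 3 risen and 0 fallen against control, where 11% of all genes were called, 4.77% up and 6.25% down. Between PA+BMS and PA+OA all 9 passed, 5 lower and 4 higher with BMS-309403, where 49.6% of all genes did, 23.1% up and 26.4% down. The split of all genes into up and down depended on the scaling. With library totals set equal, 519 rose and 2905 fell in PA against control and 4582 rose and 1203 fell in PA+BMS against PA. It was 1228 and 3275 in PA+OA against control, and 4577 and 1488 in PA+BMS against PA+OA. Each group enters 3 of the 6 comparisons, so the comparisons share libraries.

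The same comparisons were read in other ways beside these calls. The 3 libraries of each group did not overlap for 8 of the 9 genes between PA and control (background 60.6%), for 4 in PA+OA against PA (24.9%), for 7 in PA+BMS against PA (69.5%), for 9 in PA+OA against control (49.7%), for 4 in PA+BMS against control (35.9%) and for 9 in PA+BMS against PA+OA (59.4%). With a smooth trend on GC content and gene length taken out of each library, 6 of the 9 were called in PA against control, beside 16.1% of all genes. The count was 4 in PA+OA against PA (13.9%), 6 in PA+OA against control (36.7%) and 5 in PA+BMS against control (19.4%). It was 2 in PA+BMS against PA (22.1%), CDKN1A down and ZMAT3 up, and 5 in PA+BMS against PA+OA (32.3%), 4 down and ZMAT3 up.

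**Figure D1:**
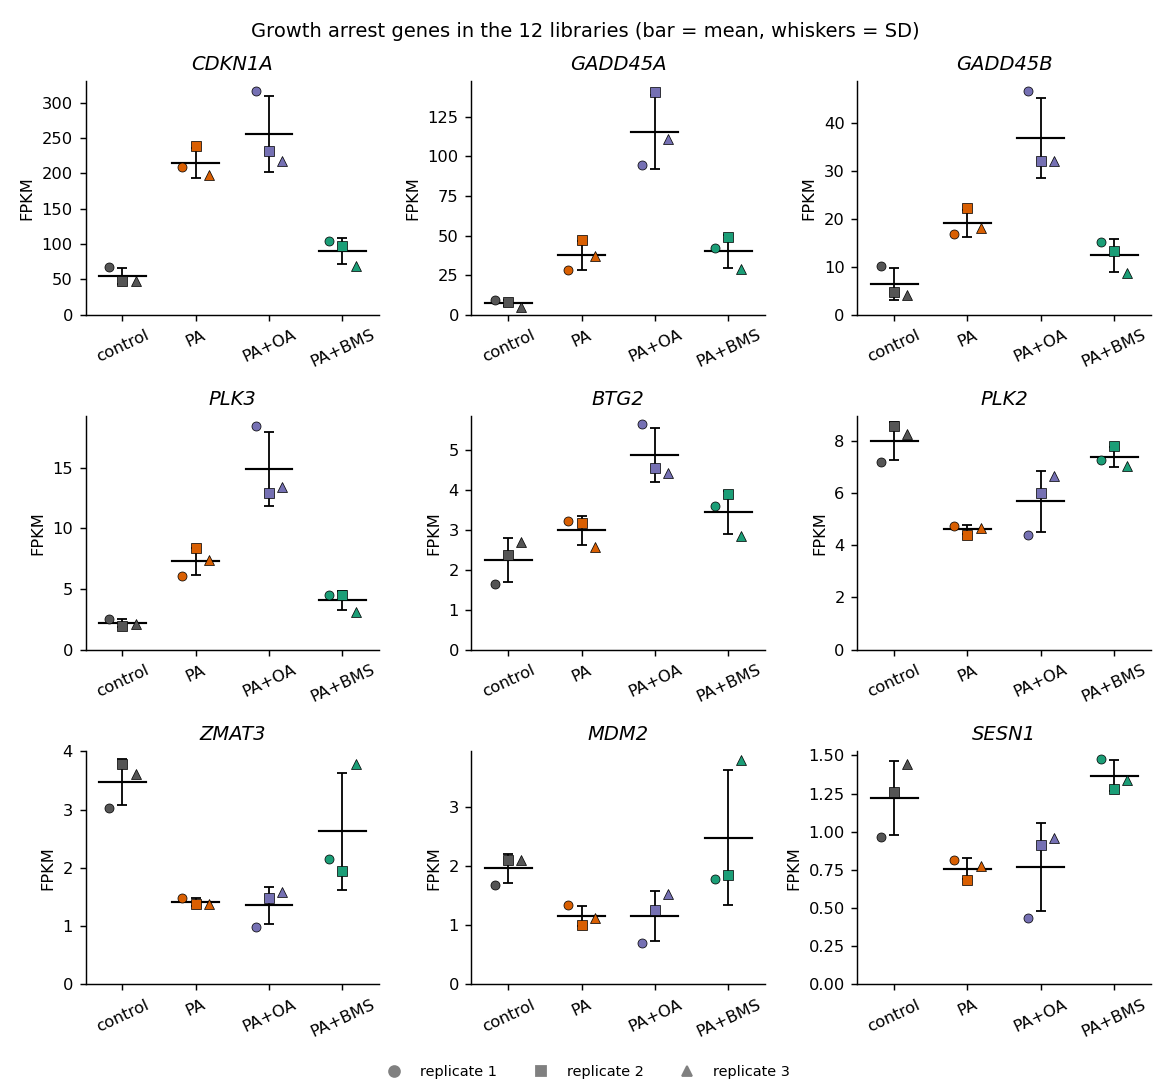
FPKM of the 9 genes in each of the 12 libraries (circle, square and triangle for replicates 1, 2 and 3), with the mean as a bar and the SD as whiskers, n = 3 per group. CDKN1A, GADD45A, GADD45B and PLK3 are above control in all 3 PA libraries, PLK2 and ZMAT3 are below it, and GADD45A in the PA+OA group, at 94.3 to 141 FPKM, lies above every other library.

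CDKN1A, which encodes the cyclin-dependent kinase inhibitor p21 (ENSG00000124762, chromosome 6, 36676460 to 36687339, plus strand), was the most abundant of the 9 in every library. It was at 67.8, 47.8 and 48.2 FPKM in control replicates 1, 2 and 3, at 209, 238 and 198 in PA, at 317, 232 and 217 in PA+OA and at 104, 96.6 and 69.1 in PA+BMS. Control libraries lay lowest, PA+BMS next, and PA and PA+OA highest with values that overlapped each other. The mean rose from 54.6 ± 11.4 to 215 ± 20.9 FPKM with palmitate (SD, n = 3), a log2 change of 1.97 (SE 0.20, limma adjusted p = 0.000219). Adding oleate gave a log2 change of 0.23 (limma adjusted p = 0.594), which was 0.067 without PA+OA replicate 1, the library at 317. Under BMS-309403 CDKN1A fell by 1.26 against PA (SE 0.20, limma adjusted p = 0.00251), and by 0.74 once the GC and length trend was removed (adjusted p = 0.00195). The 3 PA+BMS libraries nonetheless stayed above the 3 controls, with a log2 change of 0.71 (limma adjusted p = 0.0409). That call was lost in 8 of the 12 fits that left out 1 library, at 0.59 to 0.71 in the fits that lost it, and was 0.89 without the libraries that stand apart (adjusted p = 0.00298). In the order control, PA+BMS, PA, PA+OA, the last 2 groups did not differ beyond their spread.

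GADD45A (ENSG00000116717, chromosome 1, 67685061 to 67688338, plus strand) encodes a small protein that binds p21, PCNA and the kinase MAP3K4, and had the widest spread of log2 levels of the 9. Its values were 8.99, 7.84 and 5.11 FPKM in control, 28.5, 47.0 and 37.1 in PA, 94.3, 141 and 111 in PA+OA, and 42.2, 49.1 and 28.7 in PA+BMS. Every PA+OA library lay above every other library, every control library lay below, and PA and PA+BMS overlapped. It rose by 2.21 on the log2 scale with palmitate (SE 0.25, limma adjusted p = 0.000359), and by a further 1.60 with oleate (SE 0.25, limma adjusted p = 0.00241), from 37.5 ± 9.28 to 115 ± 23.5 FPKM (SD, n = 3). PA+OA stood 3.82 above control (limma adjusted p = 1.21e-06). In contrast to CDKN1A, its change with BMS-309403 against PA was 0.084 (SE 0.25, limma adjusted p = 0.787) and 0.57 with the trend removed (adjusted p = 0.0892), so neither a fall nor a rise was shown. PA+BMS remained 2.30 above control (limma adjusted p = 0.000216) and 1.52 below PA+OA (limma adjusted p = 0.00157). All 5 of these calls held in each of the 12 fits without 1 library.

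GADD45B (ENSG00000099860, chromosome 19, 2476122 to 2478259, plus strand), a paralogue that TGF-beta and NF-kB are known to induce, lay at lower levels. It was at 10.1, 4.65 and 4.21 FPKM in control, 16.8, 22.2 and 18.2 in PA, 46.5, 32.0 and 32.0 in PA+OA, and 15.1, 13.3 and 8.60 in PA+BMS. Control replicate 1 was above the other controls and within the range of the PA+BMS group, while PA+OA did not overlap any other group. The log2 change was 1.53 with palmitate (SE 0.28, limma adjusted p = 0.00496) and 2.43 for PA+OA against control (limma adjusted p = 8.3e-05). Oleate on top of palmitate gave 0.90 (SE 0.28, limma adjusted p = 0.0712), with no overlap between the groups. This passed with the trend removed (0.90, adjusted p = 0.00827), with voom (adjusted p = 0.0393), without control replicate 1 and with a replicate block, but not in the main test. BMS-309403 gave -0.61 against PA (limma adjusted p = 0.0787) and -0.044 with the trend removed, and PA+BMS lay 1.51 below PA+OA (limma adjusted p = 0.00263). Against control, PA+BMS gave 0.92 (limma adjusted p = 0.0552), and 1.14 without the libraries that stand apart, where it passed (adjusted p = 0.015). In the order control, PA+BMS, PA, PA+OA no neighbouring pair passed the main test, although PA+BMS, PA and PA+OA did not overlap one another.

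PLK3 and PLK2 encode Polo-like kinases that act in stress and cell cycle checkpoints, and both are known p53 targets. PLK3 (ENSG00000173846, chromosome 1, 44800225 to 44805990, plus strand) was at 2.55, 1.93 and 2.14 FPKM in control, 6.09, 8.36 and 7.42 in PA, 18.5, 12.9 and 13.4 in PA+OA, and 4.53, 4.54 and 3.14 in PA+BMS. The 4 groups did not overlap one another, in the order control, PA+BMS, PA, PA+OA, and each neighbouring pair passed the test. PLK3 rose by 1.36 with palmitate (SE 0.16, limma adjusted p = 0.000601) and by 0.94 more with oleate (limma adjusted p = 0.00455). It fell by 0.71 with BMS-309403 (limma adjusted p = 0.00749), which became -0.24 with the trend removed (adjusted p = 0.0875), where it did not pass. Above control, PA+BMS stood 0.65 higher (limma adjusted p = 0.0255), a call lost in 4 of the 12 fits without 1 library.

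PLK2 (ENSG00000145632, chromosome 5, 58453982 to 58460260, minus strand) moved the other way. It was at 7.16, 8.56 and 8.26 FPKM in control, 4.74, 4.39 and 4.67 in PA, 4.39, 5.999 and 6.65 in PA+OA, and 7.27, 7.78 and 7.04 in PA+BMS. All PA and PA+OA libraries were below all control libraries, and PA+BMS overlapped control. PLK2 fell by 0.68 with palmitate (SE 0.13, limma adjusted p = 0.00542) and by 0.32 with the trend removed (adjusted p = 0.0472). Oleate gave 0.24 against PA (limma adjusted p = 0.325) and 0.39 without PA+OA replicate 1, where it passed. It rose with BMS-309403 by 0.58 against PA (limma adjusted p = 0.00642), which was 0.10 with the trend removed (adjusted p = 0.472). PA+OA was 0.44 below control (limma adjusted p = 0.0193), a call lost without control replicate 2 or 3 and 0.29 below without PA+OA replicate 1. With the trend removed the change was -0.20 and was not called (adjusted p = 0.129). PA+BMS was 0.34 above PA+OA (limma adjusted p = 0.0437), a call lost in 10 of the 12 fits without 1 library and reversed to -0.018 with the trend removed.

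Within a library, where a scaling factor cancels, the ratio of these genes set the groups apart in ways chosen for description after their values were seen. GADD45A over CDKN1A, a ratio of FPKM, was 0.133, 0.164 and 0.106 in control, 0.136, 0.197 and 0.187 in PA, 0.297, 0.607 and 0.510 in PA+OA, and 0.404, 0.508 and 0.415 in PA+BMS. All PA+OA and PA+BMS libraries were above all control and PA libraries. The pair is close in GC content, at 57.0% and 59.4% of transcript bases. PLK3 over PLK2 was 0.357, 0.226 and 0.259 in control, 1.28, 1.90 and 1.59 in PA, 4.21, 2.16 and 2.02 in PA+OA, and 0.624, 0.584 and 0.447 in PA+BMS, with no overlap between groups. Here GC content differs, at 58.5% for PLK3 and 41.5% for PLK2, and its part in the ratio was not tested.

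**Figure D2:**
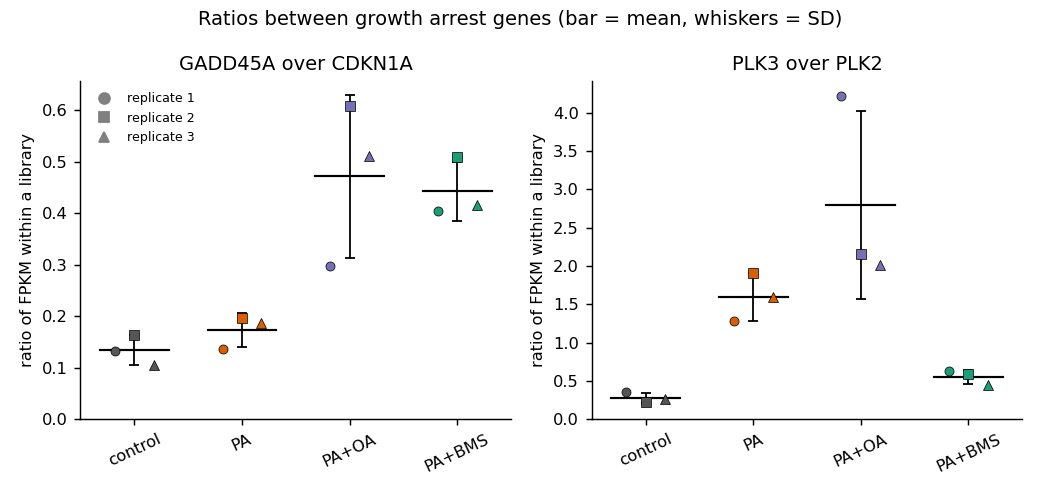
Ratio of FPKM within each library for GADD45A over CDKN1A (left) and PLK3 over PLK2 (right), by group and replicate, with the mean as a bar and the SD as whiskers, n = 3. The left ratio is at most 0.197 in control and PA and at least 0.297 in PA+OA and PA+BMS, and the right ratio is under 1 in control and PA+BMS and above 1 in PA and PA+OA.

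BTG2 (ENSG00000159388, chromosome 1, 203305491 to 203309602, plus strand) encodes an antiproliferative protein that recruits the mRNA deadenylase complex. It was at 1.64, 2.38 and 2.70 FPKM in control, 3.21, 3.17 and 2.57 in PA, 5.65, 4.54 and 4.42 in PA+OA, and 3.59, 3.88 and 2.83 in PA+BMS. PA+OA was above all other libraries, and the other 3 groups were close, with PA overlapping both control and PA+BMS. BTG2 rose with oleate by 0.56 against PA (SE 0.15, limma adjusted p = 0.0393) and by 0.87 against control (limma adjusted p = 0.00122). The first call was lost in 9 of the 12 fits without 1 library, at 0.46 to 0.61, and the second in none. Palmitate alone gave 0.31 (limma adjusted p = 0.124), and 0.17 without control replicate 1. PA+BMS was 0.41 below PA+OA (limma adjusted p = 0.0401), which did not pass with the trend removed (-0.20, adjusted p = 0.259) or without the libraries that stand apart (-0.21). Against control, PA+BMS gave 0.46 (limma adjusted p = 0.0695), and 0.56 without those libraries, where it passed (adjusted p = 0.0187).

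MDM2, ZMAT3 and SESN1 are classical p53 targets that did not rise with palmitate. MDM2 (ENSG00000135679, chromosome 12, 68808176 to 68850686, plus strand) was at 1.68, 2.10 and 2.10 FPKM in control, 1.34, 1.01 and 1.12 in PA, 0.700, 1.25 and 1.53 in PA+OA, and 1.79, 1.85 and 3.79 in PA+BMS. The PA and PA+OA libraries were all below the control libraries, and PA+BMS replicate 3 was far above the other PA+BMS libraries. Palmitate gave a log2 change of -0.46 (SE 0.20, limma adjusted p = 0.104) and 0.027 with the trend removed (adjusted p = 0.858). Without the libraries that stand apart, which belong to other groups, the same -0.46 passed (adjusted p = 0.00426). In that fit 56.7% of all tested genes were called in PA against control, beside 27.6% in the main fit. MDM2 rose by 0.65 with BMS-309403 against PA (limma adjusted p = 0.0213), a call lost without PA replicate 2, PA replicate 3 or PA+BMS replicate 3. Without the last library the change was 0.39, which passed when both libraries that stand apart were left out (adjusted p = 0.0158), and the change was 0.0051 with the trend removed. Against PA+OA, PA+BMS was 0.66 higher (limma adjusted p = 0.0218), or 0.24 and not called without the libraries that stand apart, and the change was 0.011 with the trend removed (adjusted p = 0.935). MDM2 has a merged exon length of 13284 bases and 40.8% GC. It overlaps CPM on the opposite strand, which reached 1.76 FPKM, and the strand setting of the counting is not given in the sources used here, so reads of the 2 genes may be mixed.

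ZMAT3 (ENSG00000172667, chromosome 3, 179017223 to 179072279, minus strand), an RNA-binding zinc finger protein, was at 3.03, 3.78 and 3.61 FPKM in control, 1.49, 1.38 and 1.38 in PA, 0.985, 1.49 and 1.59 in PA+OA, and 2.15, 1.95 and 3.78 in PA+BMS. All PA and PA+OA libraries lay below all others, and PA+BMS replicate 3 was at the control level. ZMAT3 fell by 0.89 with palmitate (SE 0.17, limma adjusted p = 0.00628) and by 0.91 with the trend removed (adjusted p = 0.00159), and no fit without 1 library ended this call. PA+OA was 0.93 below control (limma adjusted p = 0.00193). It rose with BMS-309403 by 0.55 against PA (limma adjusted p = 0.0199), by 0.52 with the trend removed (adjusted p = 0.0225), and by 0.34 without both libraries that stand apart (adjusted p = 0.0162). Without PA+BMS replicate 3 alone the same 0.34 was not called, and the call was also lost without PA replicate 2. PA+BMS was 0.60 above PA+OA (limma adjusted p = 0.0161), or 0.26 and not called without the libraries that stand apart. Against control, PA+BMS gave -0.33 (limma adjusted p = 0.247) and fell by 0.55 without those libraries (adjusted p = 0.00447). At 52.1%, its GC content is near the middle of the tested genes (percentile 56.2).

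SESN1 (ENSG00000080546, chromosome 6, 108986437 to 109094819, minus strand), a sestrin that restrains mTORC1 signalling, was the least abundant of the 9. It was at 0.963, 1.26 and 1.44 FPKM in control, 0.818, 0.683 and 0.778 in PA, 0.438, 0.911 and 0.958 in PA+OA, and 1.48, 1.28 and 1.34 in PA+BMS. PA and PA+OA lay below control and PA+BMS, which overlapped each other. The log2 change was -0.33 with palmitate (limma adjusted p = 0.0871) and 0.065 with the trend removed. The -0.33 passed in the fit without the libraries that stand apart (adjusted p = 0.0234), where 56.7% of all tested genes were called. It rose with BMS-309403 by 0.43 against PA (SE 0.14, limma adjusted p = 0.0236), and the change was -0.099 with the trend removed (adjusted p = 0.565). That call was also lost without PA replicate 2, PA+BMS replicate 1 or PA+BMS replicate 3, at 0.39 to 0.44. PA+BMS was 0.43 above PA+OA (limma adjusted p = 0.0247), or 0.30 and not called without the libraries that stand apart, and the change was 0.014 with the trend removed. With log2(FPKM + 1), changes at such levels are understated, as are, less strongly, those of the other genes at a few FPKM. With voom on whole reads the change with palmitate was -0.68 for SESN1, -0.78 for MDM2, -1.31 for ZMAT3 and 1.69 for PLK3. SESN1 also overlaps AL390208.1 on the opposite strand, which reached 0.492 FPKM, so reads may be mixed as for MDM2. The opposite-strand partners of PLK3 and CDKN1A, TCTEX1D4 and DINOL, reached 0.951 and 0.179 FPKM.

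**Figure D3:**
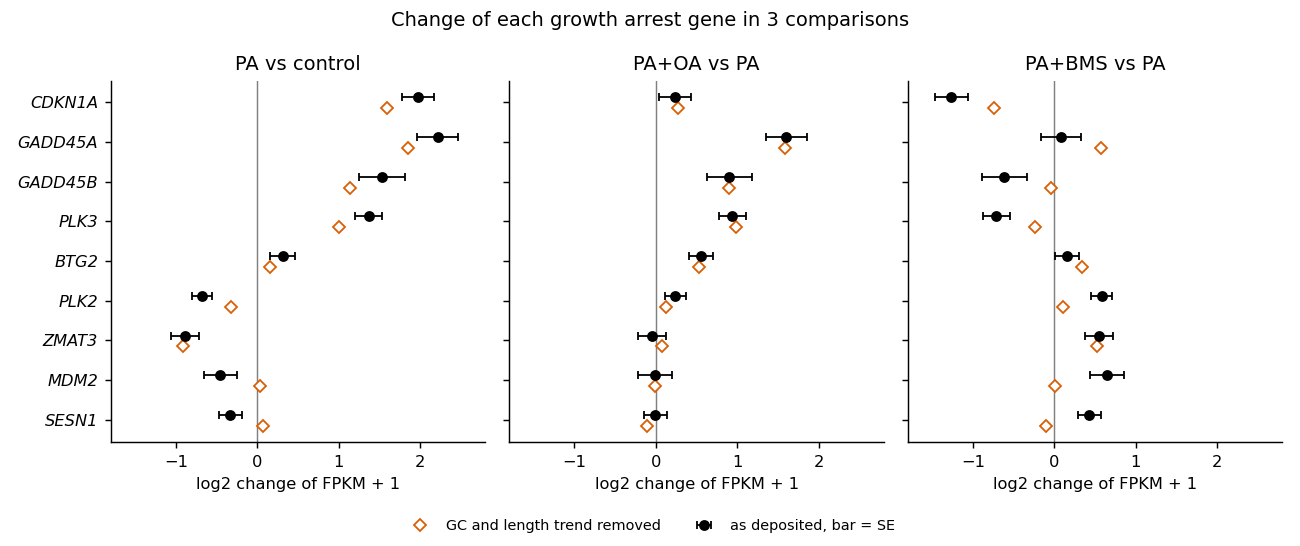
Log2 change of FPKM + 1 for the 9 genes in 3 comparisons, as deposited (filled, with SE) and with each library's trend on GC content and gene length removed (open). Removing the trend left GADD45A at 1.85, CDKN1A at 1.59 and ZMAT3 at -0.91 in PA against control, and brought MDM2, SESN1 and PLK2 to between -0.099 and 0.10 in PA+BMS against PA.

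The 4 genes that rose with palmitate had transcripts of 57.0% to 59.8% GC (GADD45A, PLK3, CDKN1A and GADD45B), and PLK2, which fell, had 41.5%. MDM2 and SESN1, which did not pass, had 40.8% and 39.3%. BTG2, which did not pass, and ZMAT3, which fell most, lay between, at 51.6% and 52.1%. GC content and length together explained 1.23% to 51.5% of a library's deviation from the mean library. With the trend removed, the rises of CDKN1A (1.59), GADD45A (1.85), GADD45B (1.13) and PLK3 (1.01) and the falls of ZMAT3 and PLK2 still passed in PA against control. When oleate was added, GADD45A (1.58), PLK3 (0.98), GADD45B (0.90) and BTG2 (0.53) passed. Setting all library totals equal moved the median of all tested genes to -0.18 in PA against control and to 0.24 in PA+BMS against PA. Under that scaling the 4 rises with palmitate were 1.14 to 1.95 and CDKN1A fell by 0.89 with BMS-309403.

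**Figure D4:**
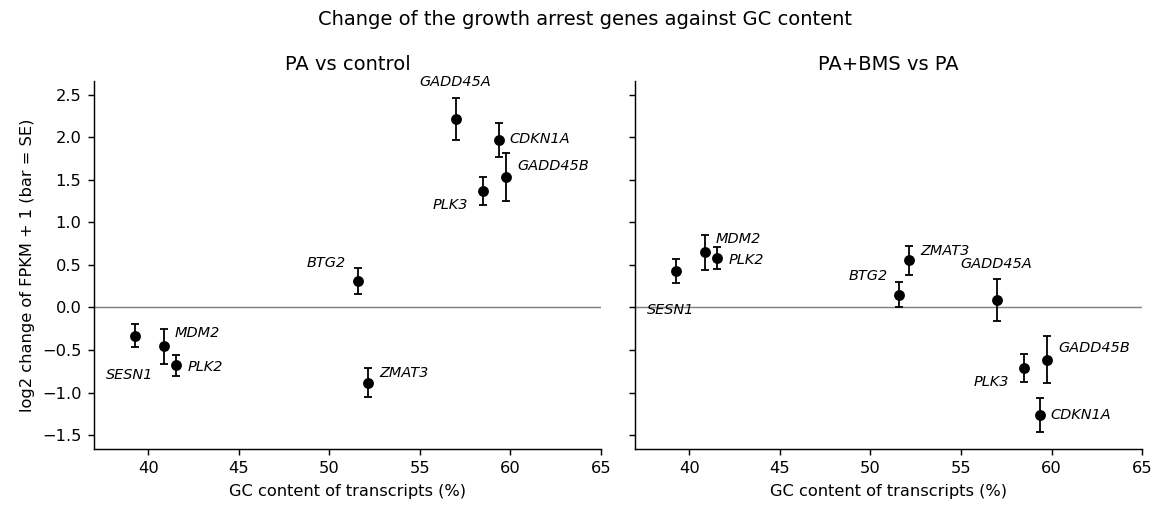
Log2 change of FPKM + 1 (bar, SE) of the 9 genes against the GC content of their transcripts, for PA against control and PA+BMS against PA. The 4 genes of 57.0% to 59.8% GC lie above 0 on the left, and 3 of them lie below 0 on the right, where GADD45A is at 0.084.

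Among the genes that control p53 itself, none rose with palmitate. Of 12 such genes, 11 were tested (ATM was too low), 0 rose and 2 fell, TP53BP1, a DNA break sensor, by 0.80 (limma adjusted p = 0.00628) and CHEK1, a checkpoint kinase, by 0.34 (limma adjusted p = 0.0335). The CHEK1 change was 0.015 with the trend removed. With oleate added to palmitate CHEK1 rose by 0.47 (limma adjusted p = 0.0162) and CHEK2 by 0.35 (limma adjusted p = 0.0309), 2 of 11. The CHEK1 call was lost in 4 and the CHEK2 call in 9 of the 12 fits without 1 library. With BMS-309403, 6 of 11 rose and 2 fell, among them CDKN2A, which encodes p16 and ARF, by 0.85 (limma adjusted p = 0.0149), or by 0.38 with no call with the trend removed (adjusted p = 0.0893). After that removal, TP53BP1 and HIPK2 rose and CHEK2 fell. Without the libraries that stand apart, 4 of 11 rose and 2 fell, where 55.2% of all tested genes were called. Beside these counts, 27.6% of all tested genes were called with palmitate, 7.91% with oleate added and 54.5% with BMS-309403 added. With the trend removed the last share was 22.1%. No list was tested as a whole.

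Of 24 further p53 targets, 19 were tested and 7 rose and 1 fell with palmitate, at a median log2 change of 0.295 beside 0.028 for all tested genes. The largest rises were those of SESN2, a sestrin like SESN1, and GDF15, a stress cytokine. SESN2 was at 14.9, 2.37 and 1.82 FPKM in control, 51.4, 53.1 and 44.7 in PA, 102, 73.2 and 77.9 in PA+OA, and 43.5, 41.3 and 38.2 in PA+BMS. Control replicate 1 was well above the other controls, and every PA library was above it (log2 change 3.25, limma adjusted p = 0.0017). GDF15, at 55.8, 21.9 and 20.01 FPKM in control and 125, 197 and 165 in PA, rose by 2.42 (limma adjusted p = 0.00211). PMAIP1, the BH3-only protein NOXA, rose by 1.18 (limma adjusted p = 0.00278), and AEN, an apoptosis-linked nuclease, by 0.60 (limma adjusted p = 0.0128). FAS, the death receptor, was the gene that fell, by 0.42 (limma adjusted p = 0.0279), and gave -0.092 with the trend removed. With that trend removed 5 rose (SESN2, GDF15, PMAIP1, BBC3 and FBXO22), 0 fell, and AEN was no longer called (0.31, adjusted p = 0.0582). With oleate added to palmitate 1 of 19 rose, TNFRSF10B, another death receptor, by 0.54 (limma adjusted p = 0.00592). In that comparison 2 rose and 3 fell with the trend removed. With BMS-309403 against PA, 3 rose (FAS, RRM2B and CCNG1) and 6 fell, AEN by 0.94 (limma adjusted p = 0.00212) and GDF15 by 1.11 (limma adjusted p = 0.0253) among them. It was 1 rise and 5 falls with the trend removed. The GDF15 change was -0.52 with the trend removed (adjusted p = 0.182) and -0.80 without the libraries that stand apart (adjusted p = 0.0804), and its call was lost in 3 of the 12 fits without 1 library. SESN2 and PMAIP1 gave -0.27 and 0.26 there and did not pass. Both were above control in PA+BMS, by 2.97 and 1.44 on the log2 scale (limma adjusted p = 0.00212 and 0.000686). The counts of this list stand beside 27.6% of all tested genes called with palmitate, or 16.1% with the trend removed. The shares were 7.91% with oleate added and 54.5% with BMS-309403 added, or 13.9% and 22.1% with the trend removed.

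**Figure D5:**
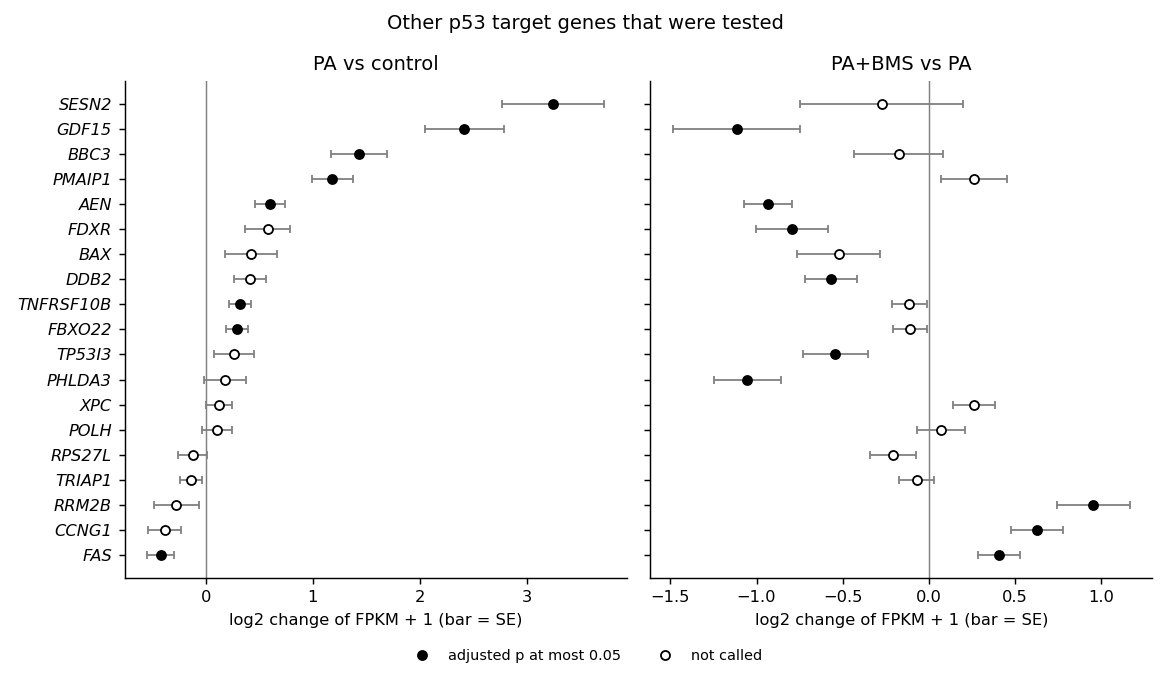
Log2 change of FPKM + 1 (bar, SE) of the 19 tested genes of the list of other p53 targets, ordered by their change in PA against control, with filled points for adjusted p of at most 0.05. On the left 7 genes are called above 0 and FAS below 0, and on the right 3 are called above 0 and 6 below.

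Relatives of the 9 genes moved in both directions. Of 13, 10 were tested (GADD45G, BTG4 and SESN3 were too low), 2 rose with palmitate (SESN2 and BTG1) and 3 fell (BTG3, TOB1 and CDKN1B). BTG1, a paralogue of BTG2, rose by 0.69 (limma adjusted p = 0.00388), from 14.3 ± 1.83 to 23.6 ± 0.507 FPKM (SD, n = 3), and TOB1, of the same family, fell by 0.83 (limma adjusted p = 0.00705). CDKN1B, the p27 relative of CDKN1A, fell from 27.1 ± 1.72 to 17.1 ± 1.64 FPKM (log2 change -0.64, limma adjusted p = 0.00476). It was back at 27.0 ± 1.03 FPKM in PA+BMS, with a rise of 0.64 against PA (limma adjusted p = 0.00373), the opposite of CDKN1A in both comparisons. With oleate added to palmitate, 0 of 10 passed by limma. With BMS-309403, 3 rose (CDKN1B, PLK4 and TOB1) and 2 fell (CDKN1C and PLK1). Of all tested genes, 27.6% were called with palmitate, 7.91% with oleate added and 54.5% with BMS-309403 added.

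Among cyclins and cyclin-dependent kinases, on which p21 acts, and their partners, 18 of 19 genes were tested. With palmitate 2 rose (E2F1 and CDKN2D) and 4 fell (CDK6, CCNA2, CCND1 and RBL2). CCND1, which encodes cyclin D1, was at 54.4, 72.9 and 88.9 FPKM in control, 37.6, 30.4 and 31.6 in PA, 20.2, 28.5 and 28.97 in PA+OA and 23.6, 26.2 and 41.0 in PA+BMS. All treated libraries were below all controls, and CCND1 fell with palmitate by 1.07 (limma adjusted p = 0.00859). CCNA2, cyclin A2, fell by 0.73 (limma adjusted p = 0.00785) and rose by 0.72 with BMS-309403 against PA (limma adjusted p = 0.00528). The CDK4 and CDK6 inhibitor CDKN2D rose by 0.81 with palmitate (limma adjusted p = 0.0117) and by 0.94 more with oleate (limma adjusted p = 0.00858). CCND3 gave 0.20 with palmitate (limma adjusted p = 0.384) and fell by 0.72 with BMS-309403 (limma adjusted p = 0.0088). With oleate 2 of 18 rose, CDKN2B and CDKN2D. With BMS-309403, 5 rose (CDK6, CCNA2, RB1, RBL1 and RBL2) and 4 fell (CDK4, CCND3, E2F1 and CDKN2D), and with the trend removed CCNA2 and CDKN2B rose and CCND3 fell. The share of all tested genes called was 54.5% in that comparison, or 22.1% with the trend removed. It was 27.6% with palmitate and 7.91% with oleate added, so the list was near the background with palmitate and with BMS-309403.

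The p38 and JNK kinases, which GADD45 proteins can activate through MAP3K4, were all tested. With palmitate 1 of 8 rose, MAP2K3, a kinase of p38, from 41.0 ± 4.65 to 83.2 ± 8.52 FPKM (SD, n = 3, log2 change 1.004, limma adjusted p = 0.00308), and 3 fell, MAP2K6, MAPK9 and MAP3K4, the last by 0.55 (limma adjusted p = 0.0297), a call lost in 5 of the 12 fits without 1 library. With the trend removed MAP2K3 alone was called, at 0.64. With oleate 0 of 8 passed by limma. With BMS-309403 MAP2K3 fell by 0.92 (limma adjusted p = 0.00376) and MAP2K7 by 0.74 (limma adjusted p = 0.0087), while MAP3K4, MAP2K4, MAPK8, MAPK9 and MAPK14 rose. MAPK8, which encodes JNK1, rose by 0.60 (limma adjusted p = 0.00516), but gave -0.022 with the trend removed. With that trend removed, 1 of the 8 rose and 3 fell with BMS-309403, where 22.1% of all tested genes were called. The median log2 change of the 8 was 0.41 in the main fit and -0.061 with the trend removed. Among all tested genes, 27.6% were called with palmitate (16.1% with the trend removed), 7.91% with oleate added and 54.5% with BMS-309403 added.

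Across the 12 libraries, CDKN1A, GADD45A, GADD45B and PLK3 followed one another on the log2 scale, with Pearson's r from 0.84 for CDKN1A and GADD45A to 0.97 for GADD45B and PLK3. ZMAT3 ran against CDKN1A (r = -0.97), and MDM2, PLK2 and SESN1 ran together (r = 0.74 to 0.89). These points share libraries, groups and the GC trend, so r is a description over n = 12 and carries no test. The genes most alike among 5950 protein-coding genes of at least 5 FPKM on average were TLNRD1 (0.99) and FOXC2 (0.98) for CDKN1A, MRNIP and EGR1 (both 0.98) for GADD45A, and MAFF and CEBPB (both 0.99) for GADD45B. For PLK3 they were SYVN1 and GOT1 (both 0.99), for PLK2 PSMD5 and BUB3 (both 0.98), for MDM2 BROX and LRRC58 (both 0.99), and for ZMAT3 CALD1 (0.99) and SYNCRIP (0.98). SESN1 was matched by NAP1L1 (0.97) and SHCBP1 (0.96). BTG2 had the weakest matches, DPH5 (0.94) and KANSL2 (0.93).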

How the data were processed

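RNA of 12 HepaRG libraries was sequenced after poly(A) selection as 150 bp pairs, per the labels' protocols. Tools listed in the submitters' processing notes are HISAT2 2.0.5, featureCounts 1.5.0-p3 and CASAVA. The authors deposited FPKM values, with build and strand not given in the sources used here. Identifiers and positions of all 58735 genes equalled GENCODE 29 on GRCh38, whose coordinates are used. Each FPKM times gene length was a whole number of reads (100%, tolerance 0.001), and the library size behind the FPKM was 0.827 to 1.14 times their sum. The genes and lists were chosen with earlier results of these data known.

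Group differences of log2(FPKM + 1) were tested with limma 3.58.1 (R 4.3.3): 4 group coefficients over 12 libraries, 8 residual degrees of freedom, moderated by eBayes with a mean trend, two-sided, adjusted by Benjamini-Hochberg in each of 6 comparisons at 0.05. The fit was tested on simulated data without a GC or length trend and without libraries that stand apart. That test does not speak to either feature. Named are all 9 genes, up to 4 genes of the smallest p per list in 3 comparisons, and the 2 most alike genes for each of the 9. Other genes, which make up counts of 5 or fewer, were named after their values were seen, and a result of these lists is not reported here. Whether equal replicate numbers mark paired libraries is not stated and was not settled: 9 of 18 same-number correlations of deviations exceeded 0.1 (range -0.28 to 0.56). The main fit treats libraries as unpaired. Alternatives changed the pseudocount (0.1), the filter (none, 5 FPKM), the scaling, the groups fitted, the weights or the unit (voom on whole reads), added a replicate block, left out libraries, or removed each library's trend on GC content and length, by splines with 5 degrees of freedom. Reads carry no molecular identifiers, so depth speaks to counting error only.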

Additional observations from a re-analysis of the deposited data

How the results depend on the processing

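The count of the 9 genes called in PA against control was 6 to 7 and in PA+OA against control 6 to 8 in fits without 1 library, and no other alternative moved either by more than 1.5 times. In fits without 1 library, 795 to 5336 and 2486 to 5029 of all 11856 tested genes were called in these 2 comparisons. In PA+OA against PA (3 called), precision weights gave 5 and fits without 1 library 2 to 4. All tested genes called there were 938 in the main fit, 4015 with precision weights and 473 to 1946 without 1 library. In PA+BMS against PA (6 called), no filter gave 3, a filter at 5 FPKM, which leaves BTG2, MDM2, SESN1 and ZMAT3 untested, 3, the trend removed 2, and fits without 1 library 3 to 7. All genes called there were 6463 in the main fit, 4407 of 30696 with no filter and 4448 of 6881 at 5 FPKM. They were 2616 with the trend removed and 3687 to 7414 without 1 library. In PA+BMS against control (3 called), no filter gave 1, library totals set equal 5, precision weights 6, the trend removed 5, voom 5, leaving out both libraries that stand apart 6, and fits without 1 library 1 to 6. All genes called there were 1306 in the main fit, 908 of 30696 with no filter, 1251 with totals equal and 4189 with precision weights. They were 2295 with the trend removed, 1427 with voom, 2159 without both libraries and 654 to 2330 without 1 library. In PA+BMS against PA+OA (9 called), no filter gave 4, the filter at 5 FPKM 5, only the 2 groups compared 4, the trend removed 5, leaving out both libraries 4, and fits without 1 library 4 to 9. All genes called there were 5878 in the main fit, 4059 of 30696 with no filter and 3965 of 6881 at 5 FPKM. They were 2066 with only the 2 groups, 3829 with the trend removed, 2567 without both libraries and 3017 to 6290 without 1 library. The cause was not tested in cases other than the filter. The replicate block, on numbers not known to pair the libraries, gave 6 and 7 calls for PA and PA+OA against control. It gave 4 and 7 for PA+OA and PA+BMS against PA. For PA+BMS it gave 4 against control and 9 against PA+OA. In that order, 4652, 5242, 1139, 7083, 1704 and 6557 of all tested genes were called, each more than in the main fit.

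Over all alternatives the sign turned in 28 of 1272 values of the 9 genes and in 4 of 739 values of the named list genes. With the trend removed these were MDM2 in PA against control (0.027) and PA+OA against control (0.021), PLK2 in PA+BMS against PA+OA (-0.018), SESN1 in PA against control (0.065), PA+BMS against PA (-0.099) and PA+BMS against control (-0.033), ZMAT3 in PA+OA against PA (0.071), CHEK1 in PA against control (0.015) and PA+BMS against PA (-0.015), CDKN2D (0.13) and MAPK8 (-0.022) in PA+BMS against PA. In PA+OA against PA, median-of-ratios scaling, equal totals, precision weights and leaving out both libraries gave 0.0051, 0.028, 0.13 and 0.15 for MDM2 and 0.0093, 0.030, 0.13 and 0.14 for SESN1, and the last pair gave 0.061 and 0.073 for ZMAT3. MDM2 in PA+BMS against control was -0.086 with precision weights and -0.066 without both libraries. Without 1 library, GADD45A in PA+BMS against PA ranged from -0.095 to 0.30, MDM2 from -0.14 to 0.15, SESN1 from -0.085 to 0.14 and ZMAT3 from -0.12 to 0.073 in PA+OA against PA, and MDM2 from -0.066 to 0.33 in PA+BMS against control.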

Other observations

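Control replicate 1 differed from the other controls as a whole library, at -5.70 on the first principal component beside -27.1 and -24.6. GC content and length explained 1.23% of its deviation from the mean library, beside 24.35% and 18.95% for control replicates 2 and 3. The genes given here were chosen after their values were seen, and the part of that wider difference in them was not tested. In control replicates 1, 2 and 3, SESN2 was at 14.9, 2.37 and 1.82 FPKM, GDF15 at 55.8, 21.9 and 20.01, and GADD45B at 10.1, 4.65 and 4.21. The BH3-only genes PMAIP1 and BBC3 were at 16.5, 9.89 and 8.24 FPKM and at 2.91, 1.10 and 0.774. MDM2, SESN1, ZMAT3, BTG2 and PLK2 were lowest of the controls in control replicate 1. For SESN2, GDF15, GADD45B, PMAIP1 and BBC3, all 3 PA libraries were above control replicate 1.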
